A study of Drosophila melanogaster with 4 samples.

Results

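The genes described here are the 72 genes whose symbol begins with mRpL or mRpS and a number, out of 14161 gene symbols in each deposited file. The rule that picks them reads the symbol and no measured value. By symbol they encode proteins of the large (mRpL, 46 genes) and small (mRpS, 26 genes) subunit of the mitochondrial ribosome. A symbol need not match the subunit in which the protein is found. RNA of dvpdf neurons from brains of Drosophila melanogaster was sequenced in 4 libraries. In 2 libraries the cells carried RNA interference against nonA (label NonA RNAi), and 2 libraries were labelled control. The driver, the construct, the controls' genotype, the age, the sex and the time of collection are not given in these sources, nor is the number of brains or cells behind a library. The labels do not say whether replicates were separate flies or dissections, so a p-value here reflects only how far these libraries varied, and that spread may be technical.

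The mitochondrial ribosome makes a small set of membrane proteins of the respiratory chain that are still encoded by the mitochondrial genome. Its RNAs come from that genome, while all of its proteins are encoded in the nucleus, made on cytoplasmic ribosomes and imported into the organelle. Many of them descend from bacterial ribosomal proteins and keep the bacterial numbers, and others, with the higher numbers, were added during mitochondrial evolution. Neurons depend on respiration for synaptic transmission and ion pumping, and in flies mutation of tko, a mitochondrial ribosomal protein gene, causes seizure-like paralysis after mechanical shock.

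Gene reads, the base of all levels given here as CPM (gene reads scaled to a library sum of 1e6), numbered 9673275 and 8558125 in NonA RNAi replicates 1 and 2 and 8419248 and 9832771 in control replicates 1 and 2. The targeted gene nonA was at 168 and 283 CPM in NonA RNAi libraries, against 255.8 and 241 CPM in the controls. Its log2 fold of NonA RNAi over control was -0.14 ± 0.48 (here and below ± beside a log2 fold is its standard error), at an adjusted p of 0.994 (edgeR, quasi-likelihood test, adjusted by Benjamini-Hochberg). Because nonA in the library labelled NonA RNAi replicate 2 was above both controls, the level of the target does not bear out that label, and each direction below rests on the labels. The 7 neuronal markers in the files (of 8 listed) summed to 2167 and 4202 CPM in NonA RNAi libraries, against 3996 and 2710 CPM in the controls, and the 7 markers of PDF clock neurons to 23492 and 90128 CPM in NonA RNAi and 8188 and 3974 CPM in control. Markers of other cells differed as well: 8 glial genes summed to 404 and 2290 CPM in NonA RNAi libraries, against 1875 and 6220 CPM in the controls, 8 fat body genes to 314 and 105 CPM in NonA RNAi and 3583 and 204 CPM in control, 5 hemocyte genes to 1.76 and 498 CPM in NonA RNAi and 1294 and 424 CPM in control, 8 photoreceptor genes to 60.2 and 54.8 CPM in NonA RNAi and 202 and 320 CPM in control, and 8 muscle genes to 237 and 2.45 CPM in NonA RNAi and 35.3 and 20.5 CPM in control. The hemocyte gene Hml was at 0 in NonA RNAi replicate 1, and the fat body gene Lsp2 was at 0 in both NonA RNAi libraries. The sums of the PDF markers lay above both controls in both NonA RNAi libraries. Pdf alone was at 18436 and 86575 CPM in NonA RNAi libraries, against 4979 and 2159 CPM in the controls. Of the 7 PDF markers 5 lay above both controls in both NonA RNAi libraries, while the groups overlapped for per and Clk. The sums of the photoreceptor markers lay below both controls in both NonA RNAi libraries, and the groups overlapped in the other sums. The part of such cells in the levels below was not tested.

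The family as a whole differed little between the groups. Its summed level was 2821 and 3518 CPM in NonA RNAi replicates 1 and 2 and 2791 and 3179 CPM in control replicates 1 and 2. The means were 3169 ± 493 CPM in NonA RNAi libraries, against 2985 ± 275 CPM in the controls (SD, n = 2 each). The groups overlapped, and the difference between the means was smaller than the spread between the NonA RNAi replicates. As these are bulk libraries, fewer cells of a type and less RNA per cell cannot be told apart.

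A single gene, mRpS5, supplied a large and variable share of that sum. mRpS5, whose protein is the counterpart of bacterial S5 at the entry of the messenger channel, was at 382 and 947 CPM in NonA RNAi replicates 1 and 2 and at 766 and 646 CPM in control replicates 1 and 2. It made up 13.5% and 26.9% of the family's reads in the NonA RNAi libraries and 27.5% and 20.3% in the controls. Its lowest and its highest library were both NonA RNAi libraries, and its log2 fold was -0.09 ± 0.58, ranging from -0.89 without NonA RNAi replicate 2 to 0.42 without NonA RNAi replicate 1. Without mRpS5 the family summed to 2439 and 2570 CPM in NonA RNAi libraries, against 2024 and 2533 CPM in the controls, so that control replicate 1 stood lowest and the other 3 libraries lay close together. The mRpL genes alone summed to 1589 and 1710 CPM in NonA RNAi libraries, against 1376 and 1754 CPM in the controls, so that the groups overlapped. All mRpS genes together summed to 1231 and 1808 CPM in NonA RNAi libraries, against 1415 and 1425 CPM in the controls. Their groups overlapped as well. The mRpS genes other than mRpS5 summed to 849.6 and 860.1 CPM in NonA RNAi libraries, against 648.3 and 778.8 CPM in the controls. In this sum both NonA RNAi libraries lay above both controls. That separation appeared only with mRpS5 left out, a step added after the data were seen.

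**Figure D1:**
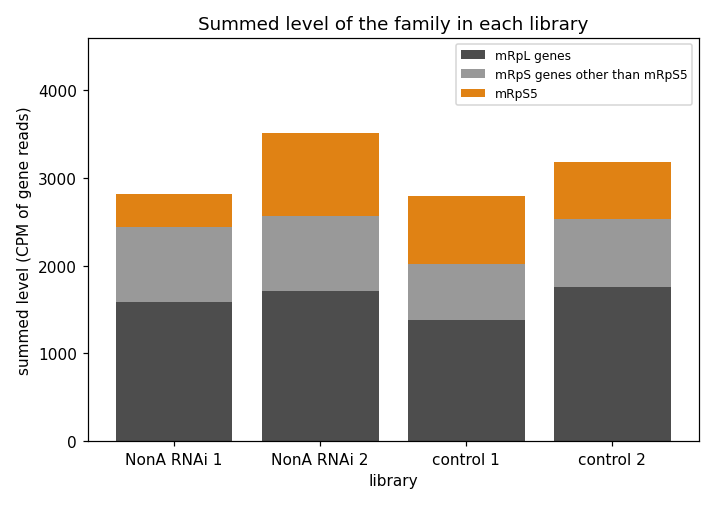
Summed level of the mitochondrial ribosomal protein genes in each library, in CPM of gene reads, for mRpL genes, mRpS genes other than mRpS5, and mRpS5. mRpS5 ranges from 382 CPM in NonA RNAi replicate 1 to 947 CPM in NonA RNAi replicate 2, and the mRpL genes are lowest in control replicate 1.

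Reads were found for 71 of the 72 genes in every library, from 43 reads (mRpS30 in control replicate 1) to 8108 reads (mRpS5 in NonA RNAi replicate 2), and the same 71 passed the filter of a mean of 1 CPM over the 4 libraries. The remaining gene, mRpL53, had 0 reads in all 4 libraries. A count of 3 reads would be 0.31 and 0.351 CPM in NonA RNAi libraries, against 0.356 and 0.305 CPM in the controls. These values set no upper limit on its level, because its whole span is overlapped and how shared reads were counted is not stated. Each file holds an entry named ambiguous, at 0.22% to 0.32% of all entries. By its name it may hold reads shared by overlapping genes, which would then count for no gene and leave such genes too low. Whether it does was not tested. In the Ensembl annotation of the newer build BDGP6, mRpL53 overlaps CG33155 on the same strand and AGO1 on the opposite strand. The larger of these overlaps covers 100% of its span. Of all members, 41 overlap a gene on the opposite strand there, 3 overlap a gene on the same strand, and 30 overlap none. No source says that reads were counted by strand, so the values of overlapping genes, above all mRpL53, mRpL13 (within CG10602), mRpS9 (over wtrw and ArgRS-m), mRpS24 (with TBC1d7) and mRpS21 (with CG8870), are uncertain.

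Levels between genes were compared per kilobase of the length listed in the files. On that scale the mean level over the 4 libraries had a median of 30.9 CPM per kilobase over the 71 genes, with quartiles of 22.2 and 47.1, so the middle of the family spanned little more than a doubling. The 5 highest were mRpS5 at 109, mRpL28 at 99.6, mRpL23 at 91.9, mRpS31 at 71.1 and mRpS16 at 70.4 CPM per kilobase. mRpL23 belongs to the proteins that ring the exit of the peptide tunnel, mRpL28 and mRpS16 are counterparts of bacterial L28 and S16, and mRpS31 is a small-subunit protein with no bacterial counterpart. The 3 lowest genes were mRpS9 at 4.07, mRpS30 at 14.4 and mRpL52 at 14.4 CPM per kilobase. The listed length is a gene span, introns included: it is 6301 bases for mRpS5 and 13389 bases for mRpS9, against 1682 and 1293 bases of exons in the Ensembl annotation. Per kilobase of those exons mRpS5 was at 407, followed by mRpL28 at 114 and mRpL23 at 113, and mRpS9 at 42.2, near the family's median of 36.6 on that scale; this second scale was added after the listed lengths were seen. The low place of mRpS9 and the size of mRpS5's lead therefore depend on the length used, while mRpS5, mRpL28 and mRpL23 held the first 3 places on both scales when averaged over the libraries. Within single libraries the order differed. In NonA RNAi replicate 1 mRpS5 was at 60.6 CPM per kilobase of listed length, under mRpL28 at 147, mRpS31 at 110, mRpL23 at 71.4 and mRpL44 at 68.7. In NonA RNAi replicate 2 mRpS5 was highest at 150 and mRpL28, at 70.4, was not among the first 5.

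Set beside the gene groups they work with, the 71 genes lay well under the cytoplasmic ribosomal proteins. Per kilobase of listed length the median was 519 CPM for 83 cytoplasmic ribosomal protein genes, 105.5 CPM for 63 nuclear-encoded respiratory chain genes with a listed length, 63.5 for 8 matrix chaperone and protease genes, 40.1 for 13 import genes, 13.9 for 22 other genes of mitochondrial gene expression and 8.85 for 16 mitochondrial aminoacyl-tRNA synthetases. The median over 9216 tested genes with a listed length was 10.7 CPM per kilobase. Genes with counterparts in bacteria by their number (mRpL1 to mRpL36 and mRpS2 to mRpS21, 42 genes) had a median of 39.8, against 25.5 CPM per kilobase for 29 genes with higher numbers. Listed spans overstate the length of genes with long introns, so the lists differ in how far their values are understated.

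**Figure D2:**
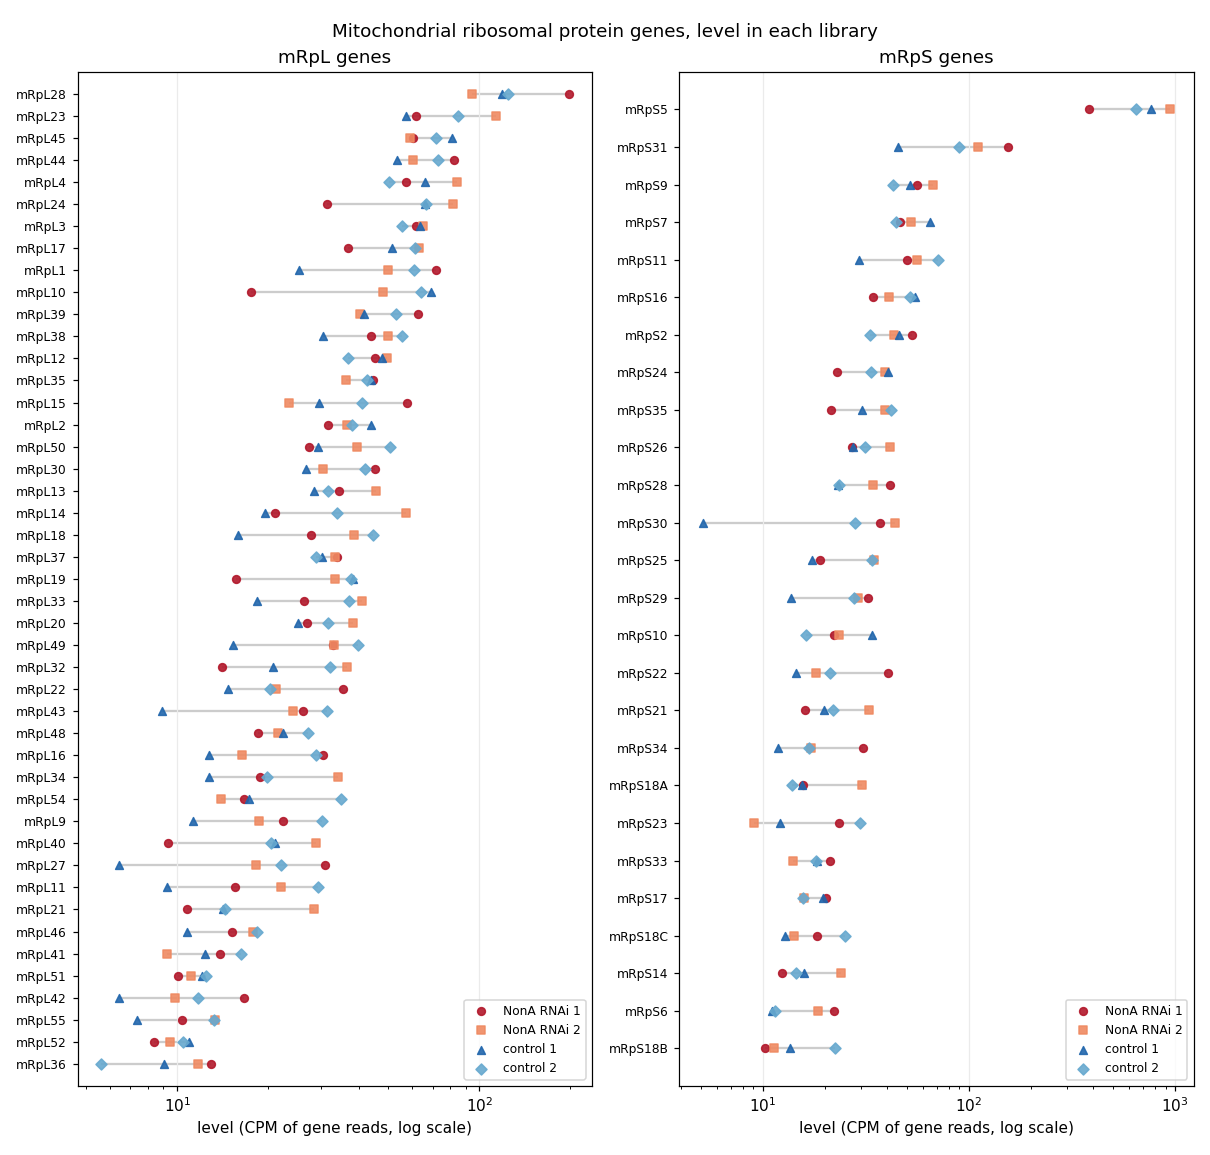
Level of the 71 measured genes in each of the 4 libraries, in CPM of gene reads on a log axis, mRpL genes on the left and mRpS genes on the right, ordered by the mean over the libraries. Grey lines join the lowest and the highest library of a gene; mRpS5 stands apart at the top, and mRpS30 has the widest gap, down to 5.11 CPM in control replicate 1.

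The question the design poses for these genes is whether they differed between the libraries labelled NonA RNAi and the controls. No mRp gene passed: 0 of 71 in edgeR, where of 9404 tested genes 0 had an adjusted p under 0.05 (0% called). At an unadjusted p under 0.05 there were 0 members, against 4.86% of all genes tested, and DESeq2 also called 0 members, against 1.51% of all genes tested. Adjusted p-values of the members in edgeR ran from 0.919 to 0.999 and the smallest unadjusted p was 0.105. With 2 libraries on either side, the smallest two-sided p of an exact permutation test on one value is 0.333. In edgeR even Pdf, at a log2 fold of 3.88 ± 0.96, had an adjusted p of 0.919. A count of 0 members therefore does not show that these genes were unchanged.

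The fitted log2 folds were small and of both signs. 44 genes had a positive and 27 a negative log2 fold of NonA RNAi over control, with a median of 0.16 and quartiles of -0.16 and 0.35, where all genes tested had a median of -0.01 and quartiles of -0.55 and 0.51. The median was 0.16 over 45 mRpL genes and 0.15 over 26 mRpS genes, and 0.16 and 0.12 over genes with bacterial and with higher numbers. Of the 71 log2 folds 52 were under 0.5 in size and 2 over 1. Without control replicate 1 the median of the members was -0.04, and without NonA RNAi replicate 2 it was 0.01. It was 0.34 without control replicate 2 and 0.19 without NonA RNAi replicate 1. The positive median therefore rests on control replicate 1 and NonA RNAi replicate 2.

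**Figure D3:**
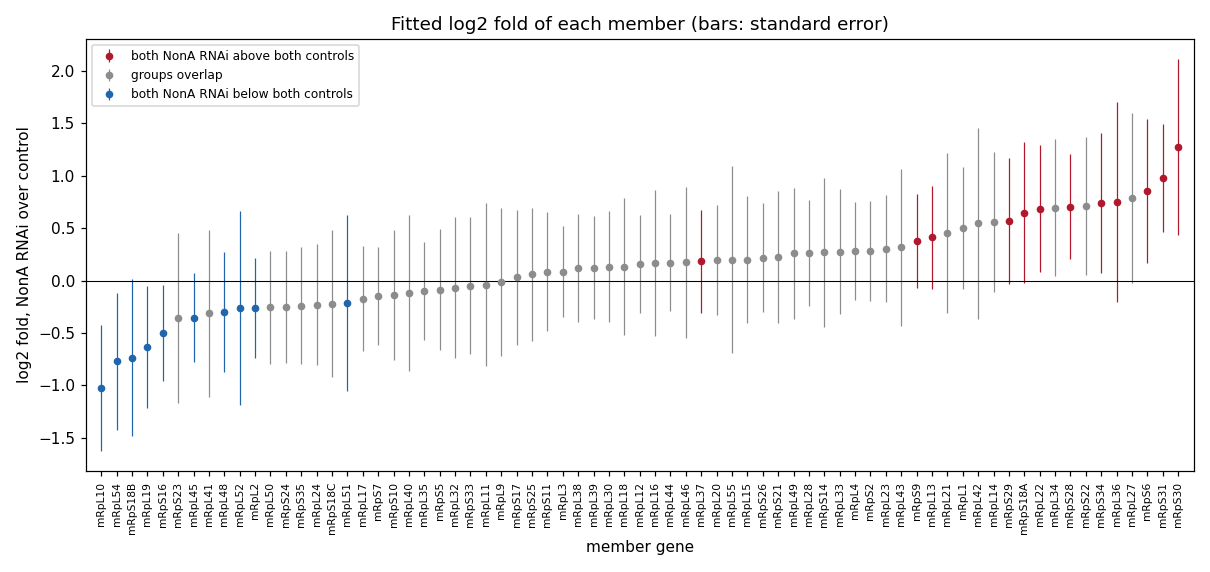
Fitted log2 fold of NonA RNAi over control for each of the 71 genes, ordered by size, with bars of 1 standard error. The folds run from -1.02 (mRpL10) to 1.28 (mRpS30); red marks the 12 genes with both NonA RNAi libraries above both controls and blue the 10 with both below.

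Both NonA RNAi libraries lay above both controls for 12 genes and below both controls for 10. These are 16.9% and 14.1% of the 71, close to the 15.2% above and 17.5% below found over all genes tested. In either direction the groups were apart for 31.0% of the members and 32.8% of all genes tested, so the count is near the background. By symbol, 8 of 26 mRpS genes were above and 2 below, and 4 of 45 mRpL genes were above and 8 below. The symbol is not always the subunit: mRpS30, among the 8 mRpS genes above, has a mammalian counterpart in the large subunit. Whether the subunits differ was not tested.

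Among the 12 genes above the controls, mRpS31 had the smallest p. Its level was 155 and 111 CPM in NonA RNAi libraries, against 45.4 and 89.5 CPM in the controls, with a log2 fold of 0.98 ± 0.52, a 95% interval from -0.27 to 2.23 and values of 0.57 without control replicate 1 and 1.55 without control replicate 2. The 2 groups did not overlap, but the controls differed from each other by a factor of 1.97. mRpS30, whose mammalian counterpart is found in the large subunit despite its name, was at 36.9 and 43.9 CPM in NonA RNAi libraries, against 5.11 and 28.2 CPM in the controls. Its log2 fold of 1.28 ± 0.84 was the largest of the family, and it was 0.52 without control replicate 1 and 2.98 without control replicate 2.

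mRpS28 had the closest pair of controls among these 12 genes. It was at 41.7 and 34.4 CPM in NonA RNAi libraries, against 23.3 and 23.4 CPM in the controls, with a log2 fold of 0.70 ± 0.50 and an interval from -0.51 to 1.92. mRpS6, the counterpart of bacterial S6, was at 22.2 and 18.6 CPM in NonA RNAi and 11.05 and 11.5 CPM in control, with a log2 fold of 0.86 ± 0.69. For both genes every library of one group lay clear of the other, and over the libraries left out their log2 folds ranged from 0.56 to 0.84 and from 0.72 to 0.98.

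mRpL22, a protein of the tunnel wall, was at 35.3 and 21.3 CPM in NonA RNAi libraries, against 14.7 and 20.3 CPM in the controls. mRpS34 was at 30.7 and 17.1 CPM in NonA RNAi and 11.9 and 16.7 CPM in control, and mRpS29, the counterpart of the GTP-binding death-associated protein DAP3 of mammals, at 32.6 and 28.9 CPM in NonA RNAi and 13.7 and 27.7 CPM in control. In these 3 genes the lower NonA RNAi library lay just above control replicate 2 and the larger gap was to control replicate 1. mRpS18A, 1 of 3 paralogues of the bacterial S18 family in the files, was at 15.7 and 30.4 CPM in NonA RNAi libraries, against 15.6 and 13.8 CPM in the controls. Its lower NonA RNAi library and its higher control were nearly equal. mRpS9 was at 56.3 and 66.95 CPM in NonA RNAi and 52.0 and 42.8 CPM in control and mRpL13 at 34.4 and 45.5 CPM in NonA RNAi and 28.4 and 31.6 CPM in control; both overlap other genes as given above. The remaining members above the controls were mRpL36, at a log2 fold of 0.75, and mRpL37, at 0.18.

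Below the controls, mRpL10 had the largest difference. mRpL10, which anchors the stalk where translation factors bind, was at 17.6 and 47.9 CPM in NonA RNAi libraries, against 69.0 and 64.2 CPM in the controls. The log2 fold was -1.02 ± 0.61, with an interval from -2.49 to 0.44. The controls lay close together, and the NonA RNAi libraries differed from each other by a factor of 2.73. Leaving out NonA RNAi replicate 1 gave a log2 fold of -0.47, and leaving out NonA RNAi replicate 2 gave -1.92. mRpL12, the stalk protein that mRpL10 carries, was at 45.1 and 49.3 CPM in NonA RNAi libraries, against 47.7 and 36.8 CPM in the controls, so its groups overlapped (log2 fold 0.16 ± 0.47, from -0.02 to 0.36 over the libraries left out).

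mRpL19 was at 15.6 and 33.2 CPM in NonA RNAi libraries, against 38.2 and 37.5 CPM in the controls, with a log2 fold of -0.64 ± 0.58. Like mRpL10, it was lowest in NonA RNAi replicate 1, and its log2 fold was between -0.19 without that library and -1.28 without NonA RNAi replicate 2. mRpS16 was at 34.3 and 40.9 CPM in NonA RNAi and 54.6 and 51.6 CPM in control, with a log2 fold of -0.50 ± 0.46 and a range from -0.63 to -0.38 over the libraries left out. mRpL45, whose mammalian counterpart ties the ribosome to the inner membrane, was at 60.3 and 59.1 CPM in NonA RNAi libraries, against 80.9 and 71.7 CPM in the controls. mRpS16 and mRpL45 had replicates that lay close together in both groups, with log2 folds of -0.50 and -0.35.

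mRpL54 was at 16.6 and 13.9 CPM in NonA RNAi libraries, against 17.2 and 34.9 CPM in the controls, and mRpS18B at 10.2 and 11.3 CPM in NonA RNAi and 13.5 and 22.4 CPM in control. In both genes control replicate 2 carried the difference: without it the log2 folds were -0.17 and -0.33, against -0.77 and -0.74 with all libraries. mRpL2, which lies at the peptidyl transferase centre, was at 31.5 and 36.6 CPM in NonA RNAi libraries, against 43.8 and 37.8 CPM in the controls. mRpL48 was at 18.5 and 21.6 CPM in NonA RNAi and 22.3 and 27.1 CPM in control, mRpL51 at 10.03 and 11.1 CPM in NonA RNAi and 12.1 and 12.4 CPM in control, and mRpL52 at 8.37 and 9.46 CPM in NonA RNAi and 10.9 and 10.48 CPM in control. These 4 differences were small, with log2 folds from -0.30 (mRpL48) to -0.21 (mRpL51).

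For the other 49 genes the groups overlapped. For 58 of the 71 members the wider gap between replicates of one group was larger than the fold between the groups, both on the log2 scale. The controls differed from each other at least 2-fold for 15 genes and the NonA RNAi libraries for 13, and no gene reached an 8-fold ratio of highest to lowest library after 1 CPM was added to both; the largest such ratio was 7.36, for mRpS30. The median log2 gap (log2 of CPM + 1) between the controls was 0.45 and that between the NonA RNAi libraries 0.49, while the median difference between the group means was 0.28 in size. Over all genes tested these medians were 0.59, 0.69 and 0.49.

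Which library was lowest differed from the transcriptome as a whole. Control replicate 1 was the lowest library for 31 of the 71 genes, or 43.7%, against 24.3% of all genes tested. NonA RNAi replicate 1 was lowest for 20, NonA RNAi replicate 2 for 9 and control replicate 2 for 11. These are 28.2%, 12.7% and 15.5%, against 31.0%, 25.1% and 19.6% of all genes tested. Control replicate 2 exceeded control replicate 1 for 48 genes, or 67.6%, against 48.8% of all genes tested. Among the 48 were mRpL43 at 31.3 against 8.91 CPM, mRpL27 at 22.0 against 6.41 CPM and mRpL11 at 29.2 against 9.26 CPM. These shares are descriptions of 4 libraries, and genes within a library are not independent.

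Genes that the files list under another symbol but that RefSeq synonyms link to mitoribosomal proteins were also looked up. For CG4866 the synonym is the only ground given, and whether its protein is part of the mitochondrial ribosome was not tested. tko, which encodes the S12 protein of the decoding centre, was at 25.02 and 24.3 CPM in NonA RNAi libraries, against 8.31 and 25.3 CPM in the controls. bonsai, which encodes the S15 protein, was at 87.2 and 59.2 CPM in NonA RNAi and 43.2 and 80.8 CPM in control. Rlc1, named mRpL47 in RefSeq, was at 33.4 and 36.9 CPM in NonA RNAi and 18.5 and 51.6 CPM in control, and CG4866, which carries mRpS4 as a synonym, at 30.2 and 43.0 CPM in NonA RNAi and 46.1 and 37.0 CPM in control. The groups overlapped for all 4 genes, and control replicate 1 was the lowest library for tko, bonsai and Rlc1. Their log2 folds were 0.55, 0.24, 0.00 and -0.18, with standard errors of 0.73, 0.52, 0.63 and 0.49, and adjusted p-values from 0.979 (tko) to 0.999 (Rlc1) in edgeR. These signs rest on single libraries: without control replicate 1 the log2 folds of tko, bonsai and Rlc1 were -0.04, -0.14 and -0.55, and without control replicate 2 they were 1.57, 0.76 and 0.92. That of CG4866 was 0.05 without NonA RNAi replicate 1.

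The other genes of mitochondrial protein synthesis did not pass either, and their libraries fell in another order. Of 22 tested genes for mitochondrial transcription, RNA handling, translation factors and mtDNA copying (27 of 31 listed symbols were in the files), 0 passed in edgeR or DESeq2, 15 had a positive and 7 a negative log2 fold, and the median was 0.20. NonA RNAi replicate 1 was the highest library for 13 of the 22, or 59.1%, against 32.6% of all genes tested. Mitochondrial aminoacyl-tRNA synthetases charge tRNAs in the matrix. Of 16 genes listed as such, 0 passed, 13 had a positive log2 fold and the median was 0.45. Whether each listed gene, Slimp among them, charges a tRNA was not tested. NonA RNAi replicate 1 was highest for 10 of the 16, or 62.5%, against 32.6% of all genes tested. The medians of these lists were -0.05 and -0.02 without NonA RNAi replicate 1.

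Single genes of these lists had larger differences than most mRp genes. CG31739, the mitochondrial aspartyl-tRNA synthetase gene AspRS-m of RefSeq, was at 148 and 81.1 CPM in NonA RNAi libraries, against 27.7 and 41.8 CPM in the controls. Its log2 fold was 1.72 ± 0.53, at an adjusted p of 0.919 in edgeR, and it was the 1 synthetase with an unadjusted p under 0.05. CG5414, the mitochondrial isoleucyl-tRNA synthetase gene IleRS-m of RefSeq, lay the other way, at 26.3 and 32.6 CPM in NonA RNAi libraries, against 66.2 and 50.4 CPM in the controls, with a log2 fold of -0.99 ± 0.48. CG6796, the asparaginyl-tRNA synthetase gene AsnRS-m of RefSeq, was at 48.8 and 32.6 CPM in NonA RNAi and 10.6 and 25.3 CPM in control. CG13163, the initiation factor gene mIF3, was at 12.1 and 11.6 CPM in NonA RNAi and 25.5 and 35.6 CPM in control, with a log2 fold of -1.37 ± 0.60. CG11418, the mitochondrial poly(A) polymerase gene MTPAP, was at 17.8 and 10.9 CPM in NonA RNAi and 1.19 and 3.86 CPM in control. mtRNApol, the mitochondrial RNA polymerase gene, was at 54.3 and 15.2 CPM in NonA RNAi and 17.5 and 11.7 CPM in control, so its groups overlapped and its high value was that of NonA RNAi replicate 1.

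For the machinery that brings ribosomal proteins into mitochondria, 0 of 14 import genes passed, with 8 positive and 6 negative log2 folds and a median of 0.03. Tom70, a receptor of the outer membrane, was at 104 and 55.6 CPM in NonA RNAi libraries, against 41.2 and 42.3 CPM in the controls, and Tom20, another receptor, at 88.1 and 108 CPM in NonA RNAi and 176 and 115.1 CPM in control. Of 8 matrix chaperone and protease genes 0 passed, with 7 positive log2 folds and a median of 0.45. CG11267, the Hsp10 co-chaperonin gene, was at 151 and 125 CPM in NonA RNAi and 87.2 and 61.3 CPM in control, with a log2 fold of 0.89 ± 0.44. Hsc70-5, the mitochondrial Hsp70 gene, was at 528 and 282 CPM in NonA RNAi and 297 and 275 CPM in control, again highest in NonA RNAi replicate 1. Without that library the median of the chaperone list was 0.12.

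Cytoplasmic ribosomal protein and respiratory chain genes were set beside the mRp genes library by library. Control replicate 1 was lowest for 75 of 83 cytoplasmic ribosomal protein genes. This is 90.4%, against 43.7% of the mRp genes and 24.3% of all genes tested. For 67 nuclear-encoded respiratory chain genes the lowest library was mostly NonA RNAi replicate 1. It was lowest for 45 of them, or 67.2%, against 28.2% of the mRp genes and 31.0% of all genes tested. Cytoplasmic ribosomal protein genes summed to 59256 and 73967 CPM in NonA RNAi libraries, against 40361 and 67746 CPM in the controls, and respiratory chain genes to 11731 and 18076 CPM in NonA RNAi and 15451 and 18657 CPM in control. The median log2 folds were 0.34 for cytoplasmic ribosomal proteins and -0.09 for the respiratory chain, and 0 genes of either list passed in edgeR or DESeq2. Without control replicate 1 the median of the cytoplasmic ribosomal proteins was 0.00, and without NonA RNAi replicate 1 that of the respiratory chain was 0.12. The groups were apart for 27.7% of the cytoplasmic ribosomal protein genes, 7.46% of the respiratory chain genes and 31.0% of the mRp genes, where all genes tested gave 32.8%. By direction, 21 cytoplasmic ribosomal protein genes lay above both controls and 2 below (25.3% and 2.41%, against 15.2% and 17.5% of all genes tested), and 3 respiratory chain genes lay above and 2 below. The mRp genes were more evenly split, at 12 above and 10 below, and whether the lists differ was not tested.

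**Figure D4:**
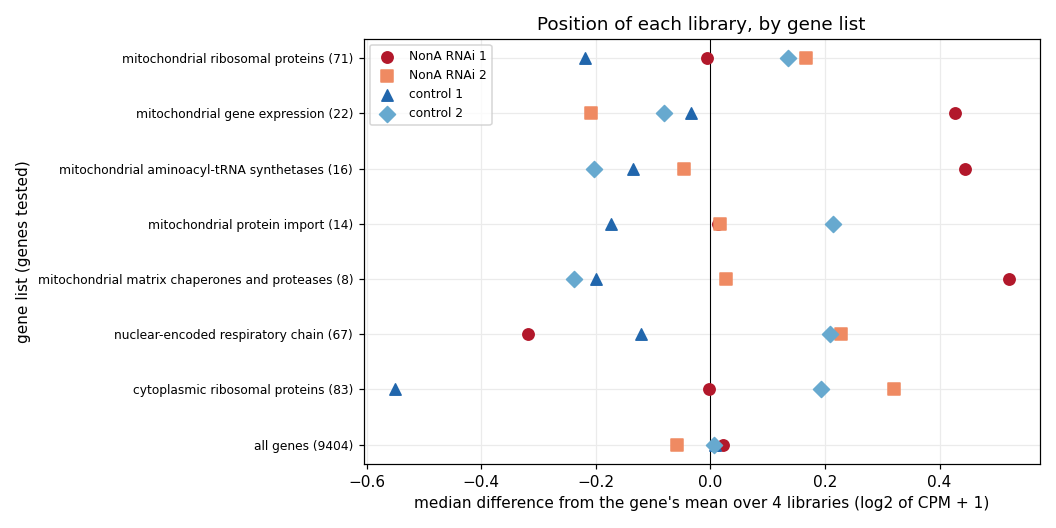
Median position of each library for 7 gene lists and all genes tested, as the difference of log2(CPM + 1) from the gene's own mean over the 4 libraries. For mitochondrial ribosomal proteins control replicate 1 lies at -0.22 and the other libraries between -0.01 and 0.17; for cytoplasmic ribosomal proteins control replicate 1 lies at -0.55, and for the respiratory chain NonA RNAi replicate 1 lies at -0.32.

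Measured this way, the library medians for the mRp genes were -0.01 and 0.17 in NonA RNAi replicates 1 and 2 and -0.22 and 0.14 in control replicates 1 and 2. The replicates of each group were thus farther from each other than the group means were. For the respiratory chain they were -0.32 and 0.23 in NonA RNAi libraries, against -0.12 and 0.21 in the controls, and for the cytoplasmic ribosomal proteins -0.00 and 0.32 in NonA RNAi libraries, against -0.55 and 0.19 in the controls. Control replicate 1 was thus the lowest library in the mRp genes as in the cytoplasmic ribosomal proteins, at a smaller distance, whereas NonA RNAi replicate 1 was lowest in the respiratory chain. The upper libraries did not keep 1 order across the mRpL and mRpS genes. The medians of the mRpL genes were -0.06 and 0.15 in NonA RNAi libraries, against -0.25 and 0.19 in the controls, and those of the mRpS genes were 0.05 and 0.22 in NonA RNAi libraries, against -0.16 and -0.01 in the controls. In control replicate 1 the fat body and hemocyte marker sums were also the highest of the 4 libraries, at 3583 and 1294 CPM, and in NonA RNAi replicate 1 the muscle markers were highest, at 237 CPM; their part in the order of the libraries was not tested.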

How the data were processed

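mRNA of dvpdf neurons was extracted, amplified and made into TruSeq libraries, per the labels' protocols. Per the submitters' processing notes, reads were handled with TopHat2 2.1.1 and Cufflinks on build dm3. How reads were counted, with which annotation and whether by strand, is not given in the sources beyond entry names such as ambiguous. The authors deposited a raw read count and an RPKM for each gene symbol, per the file headers. The 5 entries that name no gene, 2 of them at 0 throughout, were left out. Reads aligned to several places made up 45.2% to 55.6% and reads without a feature 27.8% to 32.5% of all entries, and gene reads 15.9% to 22.0%, so genes with near-identical copies are uncertain.

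Levels are CPM of the summed gene reads. Genes with a mean of at least 1 CPM (9404) were compared with edgeR 4.0.16 (R 4.3.3), without further scaling, by the two-sided quasi-likelihood test with Benjamini-Hochberg adjustment at 0.05; the biological coefficient of variation was 73.7%. Each standard error is the size of the log2 fold over the root of F. Members were fixed by symbol; the members, the lists and the rule for naming genes were chosen with earlier results of these data known. The rule named up to 10 members in each direction by smallest p among those whose groups did not overlap. It also named the 5 highest and 3 lowest per kilobase, genes with mitoribosomal synonyms, and up to 3 genes of each other list. DESeq2 1.42.0, other scalings, filters and libraries left out were alternatives; the deposited RPKM served only for a filter. Because amplified reads are not independent molecules, levels at 3 reads cover counting error only. They set no limit for mRpL53, whose span is overlapped by other genes. Gene names came from RefSeq (13899 symbols and all 72 members matched) and overlaps from Ensembl BDGP6, whose coordinates are not used. Promoter sequences were not analysed here.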

Additional observations from a re-analysis of the deposited data

How the results depend on the processing

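No mRp gene passed under any of the 12 alternatives. The number of mRp genes whose groups were apart was 22 and lay between 20 and 22 under the other scalings, the filters and without Pdf; it was not counted for the other alternatives. Over all genes 0 passed with all libraries and a filter of 1 CPM; 79 passed without a filter and 142 with DESeq2, and 0 to 22 with single libraries left out, the 22 without control replicate 2. The median log2 fold of the members was 0.16 and lay between -0.04 and 0.34 when 1 library at a time was left out, the median of -0.0398 being that without control replicate 1. Pdf made up 1.84% and 8.66% of gene reads in NonA RNAi libraries, against 0.50% and 0.22% in the controls. As CPM counts these reads in the library sum, a larger Pdf share lowers the other levels. Without Pdf the median of the members was 0.23. The log2 ratio of the summed levels was 0.09, 0.17 without Pdf, and 0.13 and 0.10 under the other scalings. It was 0.14 without mRpS5 (added after the data were seen), and between -0.08 and 0.24 without single libraries. The log2 fold of nonA was -0.14 and lay between -0.57 and 0.19 in the same way, the 0.19 being that without NonA RNAi replicate 1; the cause was not tested. All 240 alternative log2 folds of the 20 members named by rule kept their sign. These members were named because their groups did not overlap, so leaving out 1 library could not turn a sign. The count therefore says little about how firm those signs are. Replicate numbers are shared by the groups, but nothing says that they pair libraries, and the deviations of same-numbered libraries had a correlation of -0.01 across 9404 genes. With the replicate number as a block 0 genes and 0 members passed, and the median of the members was 0.17. Each of 71 members had at least 43 reads in each library, and mRpL53 had none.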
